A study of Mus musculus with 6 samples.

Results

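The genes described here encode the subunits of mitochondrial complexes I, III, IV and V that are made from nuclear DNA. They were picked by symbol, as names that begin with Ndufa, Ndufb, Ndufc, Ndufs, Ndufv, Uqcr, Cox4i, Cox5, Cox6, Cox7, Cox8 or Atp5, with names holding Ndufaf left out. Each symbol was represented by its transcript with the highest mean. The names took in 81 of 22098 symbols, and 74 of them reached a mean of at least 1 RPKM (reads scaled to transcript length and to library size) over the 6 libraries, as did 10943 symbols in all. Complex I gave 36 of 36 named genes, complex III 8 of 8, complex IV 15 of 20 and complex V 15 of 17. Complexes were assigned by name, so complex V includes Atp5s and Atp5sl, which are not subunits of the ATP synthase, and Ndufa4 was placed in complex IV. Just inside the limit was Uqcrb with a mean of 1.12 RPKM, and just outside it was Atp5l with 0.517 RPKM.

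Oxidative phosphorylation turns the energy of NADH and succinate into ATP at the inner mitochondrial membrane. Complex I takes electrons from NADH and complex III passes them on to cytochrome c. Complex IV hands them to oxygen, and complex V, the ATP synthase, uses the proton gradient that the others build. Most subunits are encoded in the nucleus and imported, a few core subunits are encoded by mitochondrial DNA, and several subunits come as isoforms used in particular tissues. Developing B cells alternate between phases of proliferation and of gene rearrangement, and their use of mitochondrial respiration is known to differ between these phases.

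The libraries were made from total RNA of proB cells sorted out of the bone marrow of C57BL/6 mice aged 6 to 7 weeks. Each genotype gave 1 library of the pooled Hardy fractions C and C' (called fraction C) and 1 library of the earlier fraction B, both defined by surface markers. The genotypes were Ikaros ZnF4-/- and Ikaros ZnF1-/-, homozygous mutants of a single zinc finger of the DNA-binding domain of Ikaros (called ZnF4 and ZnF1), and wild type (wt). Ikaros is a zinc finger transcription factor of lymphocyte development encoded by Ikzf1, and the series asks what its individual fingers do. Since every combination of genotype and fraction is a single library, no difference between 2 libraries can be checked against replicates. The labels do not give the number of animals per library. RPKM values carry no read depth.

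Some facts of the libraries bear on every comparison. The 14 proB markers were all present in all 6 libraries, with summed levels of 2380.0 to 5619.2 RPKM. The ZnF1 fraction C library stood apart: 16 granulocyte and monocyte markers summed to 43976.0 RPKM there, against 1036.3 to 3898.1 RPKM elsewhere, and 12 erythroid markers to 3954.4 RPKM, against 137.2 to 334.1 RPKM. Xist, the RNA of the inactive X chromosome, stood at 91.9 and 81.3 RPKM in the wt libraries and was listed at 0 in the 4 mutant libraries, which alone held RNA of the Y-linked Eif2s3y, so sex and mutation cannot be told apart. Ikzf1 itself stood at 425.1 and 431.6 RPKM in ZnF4, 154.1 and 181.5 RPKM in ZnF1, and 169.4 and 150.3 RPKM in wt cells (fraction C before B), which does not show which finger is altered. In such bulk samples, fewer cells of a type and less RNA per cell cannot be told apart. Differences and folds are given on the log2(RPKM + 1) scale, where low genes show too small a change. Centring the libraries on 19 B-lineage genes in place of the deposited scale moved the median of all genes to -0.60 for ZnF4 minus wt, 0.23 for ZnF1 minus wt, -0.83 for ZnF4 minus ZnF1 and 0.42 for fraction C minus B, and it is named below where it turns a direction. It subtracts the same value from every gene of a library, so all genes of a pair shift alike. The 19 genes include Ikzf1 and themselves differed, with limma medians of 0.59, 0.01, 0.68 and -0.51 in the same order. This scale therefore carries their differences.

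Together the 74 subunit genes summed to 4730.6 RPKM in ZnF4, 4627.3 RPKM in ZnF1 and 5468.8 RPKM in wt cells of fraction C. In fraction B the sums were 3505.2 RPKM in ZnF4, 5293.0 RPKM in ZnF1 and 4113.3 RPKM in wt cells. The lowest sum was thus that of ZnF4 cells in fraction B and the highest that of wt cells in fraction C. As a share of each library's RPKM total, the genes held 1.66% in ZnF4, 1.30% in ZnF1 and 1.89% in wt cells of fraction C, and 1.33%, 1.78% and 1.53% in ZnF4, ZnF1 and wt cells of fraction B. The share was smallest in the ZnF1 fraction C library, which also held the granulocyte, monocyte and erythroid RNA, whose part was not tested.

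Complex V had the most abundant subunit RNAs. Atp5b, the catalytic beta subunit, ranged from 258.6 to 574.2 RPKM over the 6 libraries, and Atp5a1, the alpha subunit that alternates with it in the F1 head, from 299.5 to 520.4 RPKM. Both had their lowest level in ZnF4 fraction B and their highest in wt fraction C. Cox4i1, the ubiquitous isoform of the largest nuclear-encoded subunit of complex IV, led that complex with 242.6 to 359.3 RPKM. In complex III the core protein gene Uqcrc1 ranged from 76.9 to 117.5 RPKM.

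**Figure D1:**
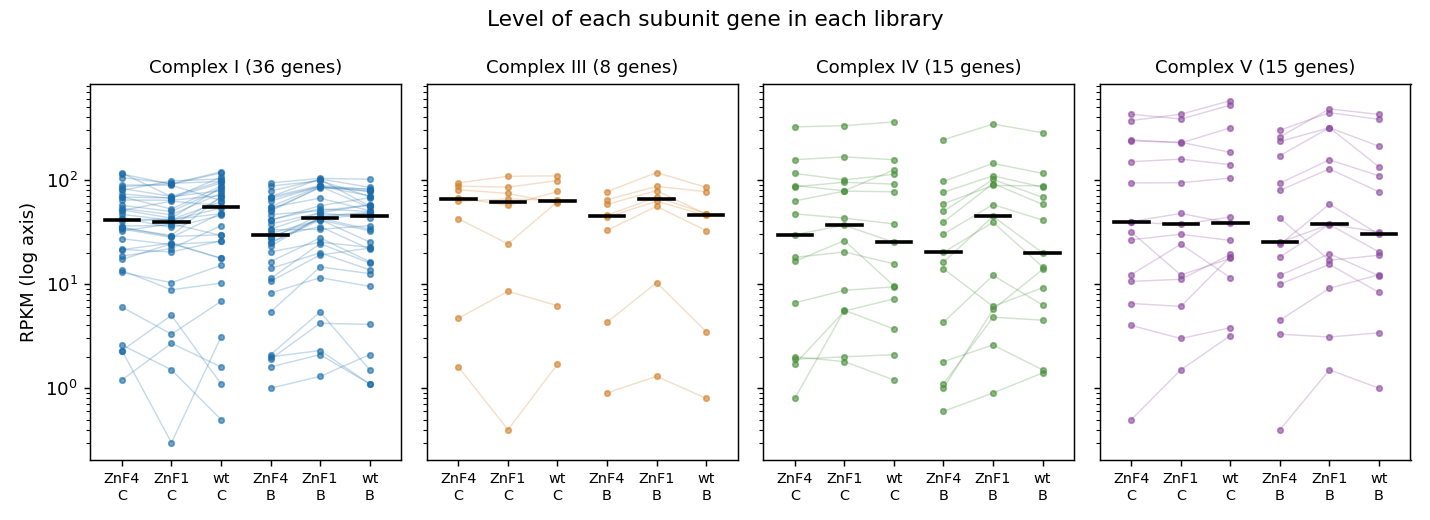
Level of each of the 74 subunit genes (points, RPKM on a log axis) in the 6 libraries, by complex, with thin lines joining a gene's values within a fraction and black bars at the median of each complex. Median levels over all members were 40.95 RPKM in ZnF4, 39.4 RPKM in ZnF1 and 50.6 RPKM in wt cells of fraction C, and 30.4, 45.2 and 38.7 RPKM in ZnF4, ZnF1 and wt cells of fraction B.

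Within complexes the levels of different subunits spanned a wide range, although the complexes are built from fixed numbers of each subunit. Uqcrb, a subunit of every complex III, averaged 1.12 RPKM beside the 98.3 RPKM of Uqcrc1. The genes Cox7c and Cox5b of complex IV averaged 1.32 and 1.98 RPKM beside the 313.6 RPKM of Cox4i1. Low genes were often those whose transcript shares sequence with other annotated genes or pseudogenes. The count does not separate copies elsewhere in the genome from genes that overlap at the same place. In 5 members (Atp5g1, Ndufa12, Cox7c, Atp5h and Atp5o) at least 50% of the 50-base stretches of the transcript also occurred in another annotated gene or pseudogene, and the median of their mean levels was 4.38 RPKM. The 28 members with 5% to under 50% shared had a median of 25.1 RPKM, and the 41 members with under 5% had 57.5 RPKM. How the authors treated reads that fit several places is not given in the sources used here, so levels of members with shared stretches are uncertain.

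Most isoforms that are typical of other tissues were at or near 0. Cox8b, the muscle isoform of Cox8, and Cox8c, its testis isoform, were listed at 0 in all 6 libraries, while the ubiquitous Cox8a stood at 59.0 to 124.4 RPKM. Cox7b2 and Ndufa4l2 were listed at 0 in 5 libraries each and reached 0.4 and 0.1 RPKM in the remaining 1, beside 4.3 to 12.1 RPKM for Cox7b and 49.9 to 100.8 RPKM for Ndufa4, a complex IV subunit despite its name. Cox4i2, the lung isoform of Cox4, was listed at 0 in 1 library and reached 0.8 RPKM at most. Of the 3 genes for the c subunit of the ATP synthase ring, Atp5g3 stood at 170.7 to 316.5 RPKM, Atp5g1 at 0.4 to 3.2 RPKM and Atp5g2 at 0 to 0.7 RPKM. Of the stretches of Atp5g1 66.0% were shared, and of Atp5g2 87.4%, against 0 for Atp5g3, so that order is uncertain. Likewise 84.8% of the stretches of Atp5l, under the limit at 0.3 to 0.9 RPKM, were shared. In 3 families both a ubiquitous and a tissue isoform passed the limit: Cox6a1 stood at 75.9 to 115.1 RPKM and the muscle isoform Cox6a2 at 0.8 to 13.8 RPKM. Cox6b1 stood at 96.8 to 166.1 RPKM and the testis isoform Cox6b2 at 6.1 to 26.1 RPKM. The muscle isoform Cox7a1 ranged from 1.1 to 7.2 RPKM, beside 30.2 to 57.8 RPKM for Cox7a2 and 14.6 to 39.1 RPKM for Cox7a2l. Cox5a and Cox5b are different subunits of complex IV despite their like names, and not isoforms of each other. Cox5a stood at 39.3 to 92.1 RPKM and Cox5b at 1.5 to 2.6 RPKM. Of the stretches of Cox5b 25.9% were shared, so its level is uncertain. Among the small complex V genes, Atp5e ranged from 133.2 to 316.2 RPKM and Atp5k from 4.5 to 18.3 RPKM.

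In ZnF4 cells 49 of 74 subunit genes lay below wt cells in fraction C (53.0% of all genes) and 50 in fraction B (55.8%), most of them slightly and a few by far. The median difference of the members, ZnF4 minus wt, was -0.16 in fraction C and -0.24 in fraction B, against -0.05 and -0.09 for all genes tested. At least 1.5-fold lower in ZnF4 were 11 members in fraction C (15.8% of all genes were) and 17 in fraction B (21.3% of all genes). At least 1.5-fold higher were 4 members in fraction C (9.48% of all genes) and 2 in fraction B (10.1%). A difference of at least 0.32 on the log2 scale in both fractions was seen in 16 members lower in ZnF4 (23.1% of all genes) and 5 higher (14.6%). Both ZnF4 libraries lay below both wt libraries in 13 members (33.0% of all genes) and above them in 9 (27.7%). Apart from the counts by any amount, these shares of the 74 members lie near or below those of all genes. By complex the medians in fraction B were -0.28 for I, -0.02 for III, -0.43 for IV and -0.23 for V, and in fraction C -0.21, -0.18, -0.08 and -0.15 in the same order of complexes.

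The genes furthest below wt in both fractions were Cox7a1, Cox6a2, Atp5k, Ndufs6 and Ndufv2. The promoters of those with an entry in the RefSeq promoter table (build GRCm38.p6) are printed here with that of Atp5sl, which stood furthest above wt, so that the upstream sequence can be read beside the levels. Each is the 250 bases before the annotated start, on the gene's own strand. Capitals mark TGCGCA, the core of sites of the nuclear respiratory factor Nrf1, the longer Nrf1 letters CATGCGC, the Ets and GABP letters CCGGAAG, the YY1 letters AAGATGG and the Ikaros core TGGGAA, searched on both strands.
Cox7a1, chr7:30183921-30184170, plus strand: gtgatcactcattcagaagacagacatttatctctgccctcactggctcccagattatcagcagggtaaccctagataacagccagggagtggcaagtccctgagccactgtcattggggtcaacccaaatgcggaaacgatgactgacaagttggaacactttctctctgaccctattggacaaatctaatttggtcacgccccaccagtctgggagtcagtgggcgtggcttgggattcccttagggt
Atp5k, chr5:108434400-108434649, minus strand: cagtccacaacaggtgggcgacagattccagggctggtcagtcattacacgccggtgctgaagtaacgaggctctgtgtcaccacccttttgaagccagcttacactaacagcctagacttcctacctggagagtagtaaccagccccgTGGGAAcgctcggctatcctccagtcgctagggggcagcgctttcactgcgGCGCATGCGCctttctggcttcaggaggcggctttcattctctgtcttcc
Ndufs6, chr13:73328483-73328732, minus strand: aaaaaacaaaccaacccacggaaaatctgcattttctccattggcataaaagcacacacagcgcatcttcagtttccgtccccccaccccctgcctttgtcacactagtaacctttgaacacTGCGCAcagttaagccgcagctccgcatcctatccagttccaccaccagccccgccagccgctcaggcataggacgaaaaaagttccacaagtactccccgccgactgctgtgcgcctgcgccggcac
Ndufv2, chr17:66101560-66101809, minus strand: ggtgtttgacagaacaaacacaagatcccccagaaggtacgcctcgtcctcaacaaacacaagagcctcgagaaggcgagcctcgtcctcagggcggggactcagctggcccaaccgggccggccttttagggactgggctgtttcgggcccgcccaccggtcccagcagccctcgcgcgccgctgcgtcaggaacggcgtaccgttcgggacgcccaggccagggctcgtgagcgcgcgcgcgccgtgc
Atp5sl (Dmac2 in RefSeq, first of 2 starts), chr7:25619164-25619413, plus strand: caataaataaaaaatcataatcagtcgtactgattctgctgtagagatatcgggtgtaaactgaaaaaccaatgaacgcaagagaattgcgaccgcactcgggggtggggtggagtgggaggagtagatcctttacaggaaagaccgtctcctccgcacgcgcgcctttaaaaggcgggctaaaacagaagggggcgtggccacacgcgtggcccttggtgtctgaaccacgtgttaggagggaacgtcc
The Atp5k window holds CATGCGC on both strands, as a pair that overlaps between bases -50 and -41 from the start, and TGGGAA at -101 to -96. The Ndufs6 window holds TGCGCA at -128 to -123. None of the searched letters occurs in the 250 printed bases of Cox7a1, Ndufv2 and Atp5sl. In windows that reach 50 bases past the start, Atp5k also held CCGGAAG, and Ndufs6 and both starts of Atp5sl held AAGATGG. Over all 63 members with an entry, in windows of 300 bases that reach 50 bases past the start, TGCGCA occurred in 22.2% of members, against 7.76% of all 32851 promoters and 16.6% of tested genes. CATGCGC, which was added to the search with the data in view, occurred in 15.9% of members, 3.91% of all promoters and 8.36% of tested genes, and CCGGAAG in 20.6%, 8.86% and 21.3% in the same order. AAGATGG occurred in 19.0% of members, 6.34% of all promoters and 8.75% of tested genes, and TGGGAA in 22.2%, 25.6% and 26.2%. Members and tested genes were counted per gene, with a match in any of its promoters, while all promoters were counted singly. Counted per gene over all 27025 genes, the shares were 8.79% for TGCGCA, 4.41% for CATGCGC and 9.93% for CCGGAAG. For AAGATGG and TGGGAA they were 7.28% and 28.3%. A match is a run of letters and not a measured site. The median GC content was 57.3% in member promoters, 52.7% in all promoters and 60.7% in those of tested genes.

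Cox7a1, the heart and skeletal muscle isoform of a small complex IV subunit, stood at 1.7 RPKM in ZnF4, 5.5 RPKM in ZnF1 and 7.2 RPKM in wt cells of fraction C. In fraction B it stood at 1.1, 4.8 and 4.5 RPKM in ZnF4, ZnF1 and wt cells. Both ZnF4 libraries thus lay below all 4 others. The ZnF4 level was 3.04-fold lower than wt in fraction C and 2.62-fold lower in fraction B, and the limma estimate over all 6 libraries was -1.50 (SE 0.23, adjusted p = 0.114).

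Cox6a2, the muscle isoform of another complex IV subunit, stood at 0.8 RPKM in ZnF4, 5.6 RPKM in ZnF1 and 3.7 RPKM in wt cells of fraction C, and at 1.0, 5.7 and 13.8 RPKM in ZnF4, ZnF1 and wt cells of fraction B. Again the ZnF4 libraries lay below the 4 others, 2.61-fold under wt in fraction C and 7.40-fold in fraction B (limma -2.14, SE 0.48, adjusted p = 0.157). The summed markers of plasmacytoid dendritic cells and of NK cells, other bone marrow cells that such a sort may hold, were likewise lowest in the ZnF4 libraries. Siglech, a receptor of plasmacytoid dendritic cells, stood at 0.1 RPKM in ZnF4, 33.0 RPKM in ZnF1 and 7.5 RPKM in wt cells of fraction C, and at 0.1, 20.2 and 24.2 RPKM in ZnF4, ZnF1 and wt cells of fraction B. Runx2 and Ccr9 were likewise lowest in ZnF4, while the remaining marker, Tcf4, was not, with 27.8 and 26.7 RPKM in ZnF4, 21.4 and 41.1 RPKM in ZnF1, and 26.9 and 34.7 RPKM in wt cells (fraction C before B). All 4 plasmacytoid markers had a value above 0 in every library and summed to 28.2 and 27.1 RPKM in ZnF4, 69.4 and 68.7 RPKM in ZnF1, and 37.6 and 71.9 RPKM in wt cells. The 6 NK markers summed to 9.1 and 2.5 RPKM in ZnF4, 97.4 and 44.8 RPKM in ZnF1, and 38.1 and 75.2 RPKM in wt cells, and 4 of them (Gzma, Gzmb, Ccl5 and Klrd1) were listed at 0 in ZnF4 fraction B. For 5 T cell markers the sums were 8.9 and 7.0 RPKM in ZnF4, 35.3 and 16.0 RPKM in ZnF1, and 22.0 and 19.6 RPKM in wt cells, with 2 markers (Cd3e and Cd3g) at 0 in ZnF4 fraction B. The part of these cells in the levels of Cox6a2 and Cox7a1 was not tested.

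Atp5k, subunit e of the membrane part of the ATP synthase, stood at 6.5 RPKM in ZnF4, 6.1 RPKM in ZnF1 and 18.3 RPKM in wt cells of fraction C, and at 4.5, 9.1 and 12.3 RPKM in ZnF4, ZnF1 and wt cells of fraction B. All 4 mutant libraries lay below both wt libraries. ZnF4 cells were 2.57-fold lower than wt in fraction C and 2.42-fold lower in fraction B (limma -1.32, SE 0.32, adjusted p = 0.173), and ZnF1 cells 2.72-fold and 1.32-fold lower (limma -0.92, SE 0.32, adjusted p = 0.525). Ndufs6, an accessory subunit of the peripheral arm of complex I, stood at 18.5 RPKM in ZnF4, 21.9 RPKM in ZnF1 and 36.3 RPKM in wt cells of fraction C. In fraction B it stood at 10.6, 19.0 and 22.1 RPKM in ZnF4, ZnF1 and wt cells. Ndufv2, an iron-sulphur core subunit of the NADH-oxidising part of complex I, stood at 36.0, 36.6 and 67.2 RPKM in ZnF4, ZnF1 and wt cells of fraction C, and at 23.0, 44.0 and 49.0 RPKM in fraction B. For both complex I genes the mutants lay below wt within each fraction, by 1.91-fold and 1.99-fold for Ndufs6 in ZnF4 (limma -0.96, SE 0.21, adjusted p = 0.155) and by 1.84-fold and 2.08-fold for Ndufv2 in ZnF4 (limma -0.97, SE 0.27, adjusted p = 0.199). The comparisons of either mutant with wt share the wt libraries.

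The 5 members higher in ZnF4 than in wt by at least 0.32 in both fractions were Atp5sl, Cox6b2, Ndufa6, Atp5e and Ndufs8. Atp5sl, named for its likeness to an ATP synthase gene but known as Dmac2, a factor for the distal membrane arm of complex I, stood at 31.5 RPKM in ZnF4, 12.2 RPKM in ZnF1 and 17.6 RPKM in wt cells of fraction C. In fraction B it stood at 42.8, 16.9 and 18.9 RPKM in ZnF4, ZnF1 and wt cells. The ZnF4 libraries lay above all others, 1.75-fold over wt in fraction C and 2.20-fold in fraction B (limma 0.97, SE 0.18, adjusted p = 0.132). No stretch of its transcript was shared with another gene. Cox6b2 stood at 16.5 RPKM in ZnF4, 26.1 RPKM in ZnF1 and 9.6 RPKM in wt cells of fraction C, and at 14.0, 6.1 and 9.2 RPKM in ZnF4, ZnF1 and wt cells of fraction B (limma 0.64, SE 0.52, adjusted p = 0.556, for ZnF4 minus wt). Its highest level was in the library with the granulocyte, monocyte and erythroid RNA, whose part was not tested. Ndufa6, an accessory subunit of complex I, was 1.40-fold and 1.39-fold higher in ZnF4, Atp5e, the epsilon subunit of the ATP synthase, 1.29-fold and 1.75-fold, and Ndufs8, an iron-sulphur core subunit of complex I, 1.47-fold and 1.26-fold. For Ndufa6 and Ndufs8 the limma direction turned with centring on B-lineage genes, to -0.05 and -0.09.

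No member passed limma's adjusted p under 0.05 for ZnF4 minus wt, and 3 of the 10943 genes did (0.0274%). At an unadjusted p under 0.05 stood 8 members lower in ZnF4 (9.74% of all genes) and 1 higher (7.9%). The model has 2 residual degrees of freedom. Without replicates, its p-values measure only the spread of the genotype differences between the fractions. That spread included the unlike ZnF1 libraries: without the ZnF1 fraction C library 22 members passed (31.6% of all genes), and without the ZnF1 fraction B library 21 did (30.8%). With only the ZnF4 and wt libraries 22 passed (31.9%). Each of the 10 named genes then passed, with adjusted p in limma down to 0.00769 for Cox7a1, 0.0181 for Cox6a2, 0.00554 for Atp5k, 0.00665 for Ndufs6 and Ndufv2, and 0.00915 for Atp5sl, and up to 0.9998 for each of them over all alternatives. The 10 named genes were picked by their ZnF4 minus wt folds in these same libraries, so their passing is no separate support. The share of members passing was again near that of all genes. Without any 1 of the ZnF4 or wt libraries, 0 members passed.

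**Figure D2:**
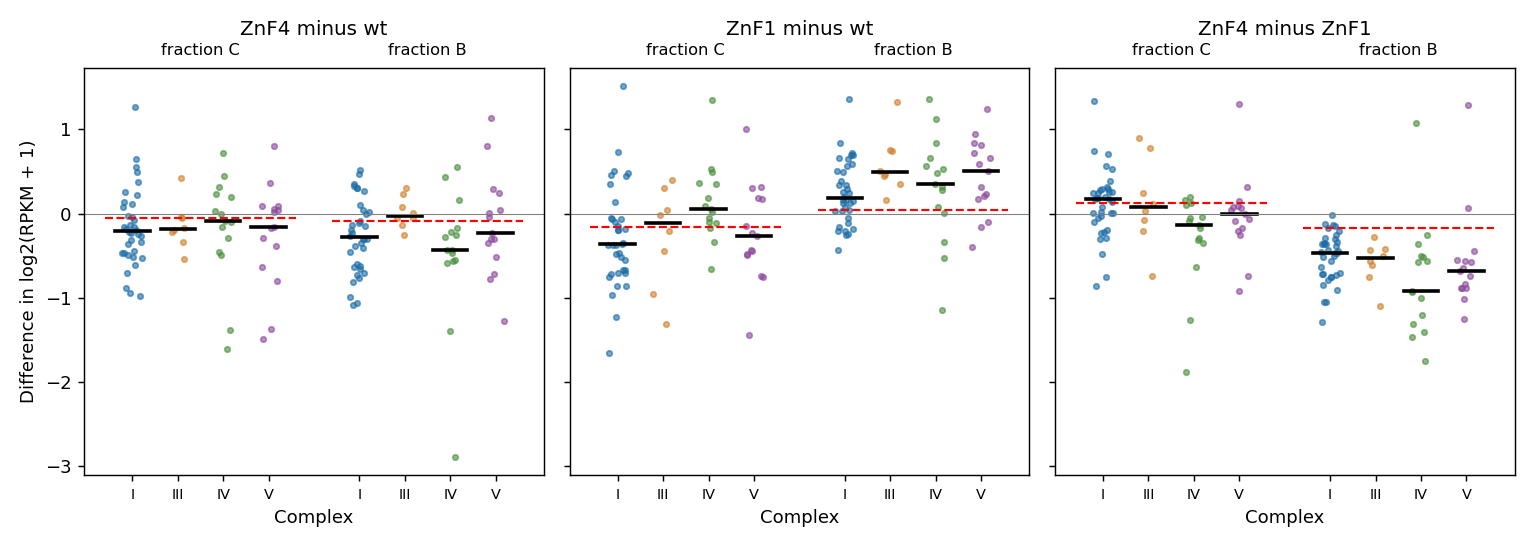
Difference in log2(RPKM + 1) of each subunit gene (points) between pairs of libraries, by complex and fraction, for ZnF4 minus wt, ZnF1 minus wt and ZnF4 minus ZnF1, with black bars at the complex medians and red dashed lines at the median of all 10943 genes. In fraction B nearly all points of ZnF4 minus ZnF1 lie below 0 and most of ZnF1 minus wt above it, while in fraction C the medians are -0.19 for ZnF1 minus wt and 0.03 for ZnF4 minus ZnF1, which turn to 0.57 and -1.17 when libraries are centred on B-lineage genes, a step that shifts all genes alike.

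In ZnF1 cells the subunit genes stood above wt in fraction B and around or below it in fraction C. The median difference of the members, ZnF1 minus wt, was 0.33 in fraction B (all genes 0.04) and -0.19 in fraction C (all genes -0.16), the second turning to 0.57 with centring on B-lineage genes, which shifts all genes alike. In fraction C 49 of 74 members were lower in ZnF1 (58.8% of all genes). In fraction B 22 members were at least 1.5-fold higher in ZnF1 (7.56% of all genes) and 1 was lower (6.58%), Cox6a2 with a 2.21-fold difference. In fraction C 4 members were at least 1.5-fold higher (19.1% of all genes) and 17 lower (23.0%). All 8 complex III genes, 27 of 36 of complex I, and 12 of 15 each of complexes IV and V were higher in ZnF1 fraction B by any amount (54.2% of all genes). The medians in fraction B were 0.18 for complex I, 0.49 for III, 0.35 for IV and 0.50 for V.

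Transcript length moved with these differences. The members' transcripts have a median of 658.5 bases and those of the other tested genes 2726 bases. For ZnF1 minus wt in fraction B, the 957 other genes with under 1000 bases had a median of 0.13 and the 7341 with 2000 bases or more 0.02, while the 53 short members had 0.35 and the 17 members of 1000 to under 2000 bases 0.17. The part of length in the members' differences was not tested.

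By at least 0.32 in both fractions, 11 members were higher in ZnF1 (7.19% of all genes) and 2 lower (6.76%). Both ZnF1 libraries lay above both wt libraries in 19 members (19.4% of all genes) and below them in 12 (23.6%). The 5 furthest up were Ndufs5, Atp5h, Ndufb4, Cox6c and Ndufs3. Ndufs5, an accessory subunit of complex I, stood at 5.0 RPKM in ZnF1 against 1.1 RPKM in wt cells of fraction C, and at 5.4 RPKM in ZnF1 against 1.5 RPKM in wt cells of fraction B, with 2.3 and 2.1 RPKM in ZnF4 cells. Both ZnF1 libraries lay above all others (limma 1.44, SE 0.24, adjusted p = 0.389). Atp5h, subunit d of the peripheral stalk of the ATP synthase, stood at 24.1 RPKM in ZnF1 against 11.5 RPKM in wt cells of fraction C and at 15.4 RPKM in ZnF1 against 8.3 RPKM in wt cells of fraction B (limma 0.91, SE 0.18, adjusted p = 0.407). Cox6c, a small complex IV subunit, stood at 36.6 RPKM in ZnF1 against 25.1 RPKM in wt cells of fraction C, and at 44.6 RPKM in ZnF1 against 19.9 RPKM in wt cells of fraction B. Ndufb4, an accessory subunit, and Ndufs3, a core subunit, both of complex I, reached at most 2.6 and 2.7 RPKM. Copies matter for all 5 of these genes, with shared stretches of 41.2% in Ndufs5, 50.5% in Atp5h, 37.0% in Ndufb4, 21.1% in Cox6c and 39.7% in Ndufs3, so their levels are uncertain. With the 41 members under 5% shared, the median in fraction B was 0.24. Of these 41, 2 were higher by at least 0.32 in both fractions (4.88%, against 7.19% of all genes). In 6 of them both ZnF1 libraries lay above both wt libraries (14.6%, against 19.4% of all genes).

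The 2 members lower in ZnF1 by at least 0.32 in both fractions were Atp5k, described above, and Ndufab1, the mitochondrial acyl carrier protein. Ndufab1 stood at 0.3 RPKM in ZnF1 against 3.1 RPKM in wt cells of fraction C. In fraction B it stood at 1.3 RPKM in ZnF1 against 2.1 RPKM in wt cells. No member passed limma for ZnF1 minus wt (3 of all genes, 0.0274%, did). At an unadjusted p under 0.05 stood 9 members higher in ZnF1 (4.99% of all genes) and 1 lower (4.31%). Without the ZnF1 fraction B library 20 members passed (37.6% of all genes), on the fraction C library alone as ZnF1, and the median of the members was then -0.23.

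The mutants differed from each other mostly in fraction B. There 71 of 74 members were lower in ZnF4 than in ZnF1 by any amount (60.8% of all genes), and the 3 exceptions were Atp5sl, Cox6b2 and Atp5s. All 36 genes of complex I and all 8 of complex III were lower in ZnF4. At least 1.5-fold lower in fraction B were 33 members (24.3% of all genes) and higher were 2 (11.3%), Atp5sl and Cox6b2. The 33 lower ones were 13 of complex I, 3 of III, 8 of IV and 9 of V. The median difference, ZnF4 minus ZnF1, was -0.56 in fraction B against -0.17 for all genes, and by complex -0.46 for I, -0.53 for III, -0.91 for IV and -0.67 for V. In fraction C the median was 0.03 against 0.13 for all genes, and -1.17 with centring on B-lineage genes, which shifts all genes alike. There 33 members were lower in ZnF4 (40.8% of all genes), with 8 members at least 1.5-fold lower (20.4% of all genes) and 6 higher (20.0%). Short genes outside the list also stood lower in ZnF4 in fraction B, with medians of -0.38 for those under 1000 bases and -0.11 for those of 2000 bases or more, against -0.64 for the 53 short members and -0.50 for the 17 of 1000 to under 2000 bases. The part of length was again not tested.

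By at least 0.32 in both fractions, 8 members were lower in ZnF4 relative to ZnF1 (17.6% of all genes), led by Cox6a2, Cox7a1, Ndufs5, Atp5g1 and Uqcr11, and 1 was higher (13.5% of all genes), Atp5sl. Both ZnF4 libraries lay below both ZnF1 libraries in 30 members (27.5% of all genes) and above them in 2 (24.5%). Atp5sl was 2.46-fold higher in ZnF4 in fraction C and 2.45-fold in fraction B, and it had the lowest adjusted p of the members (limma 1.30, SE 0.18, adjusted p = 0.0555). Cox7a1 was 2.41-fold and 2.76-fold lower (limma -1.37, SE 0.23, adjusted p = 0.0670), and Cox6a2 3.67-fold and 3.35-fold lower (limma -1.81, SE 0.48, adjusted p = 0.130). Uqcr11, a small subunit of complex III, stood at 4.7 RPKM in ZnF4 against 8.5 RPKM in ZnF1 cells of fraction C and at 4.3 RPKM in ZnF4 against 10.3 RPKM in ZnF1 cells of fraction B (limma -0.91, SE 0.29, adjusted p = 0.173). No member passed limma here, while 199 genes did (1.82%). At an unadjusted p under 0.05 stood 9 members lower in ZnF4 (12.3% of all genes) and 1 higher (10.4%). Without the ZnF1 fraction C library 33 members passed (24.6% of all genes), and without the ZnF1 fraction B library 10 did (37.5%), with a median of 0.02 over the members. Of the alternatives in scale, a pseudocount of 0.25 or centring on library medians passed 1 member each and centring on B-lineage genes 14 (8.47% of all genes).

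**Figure D3:**
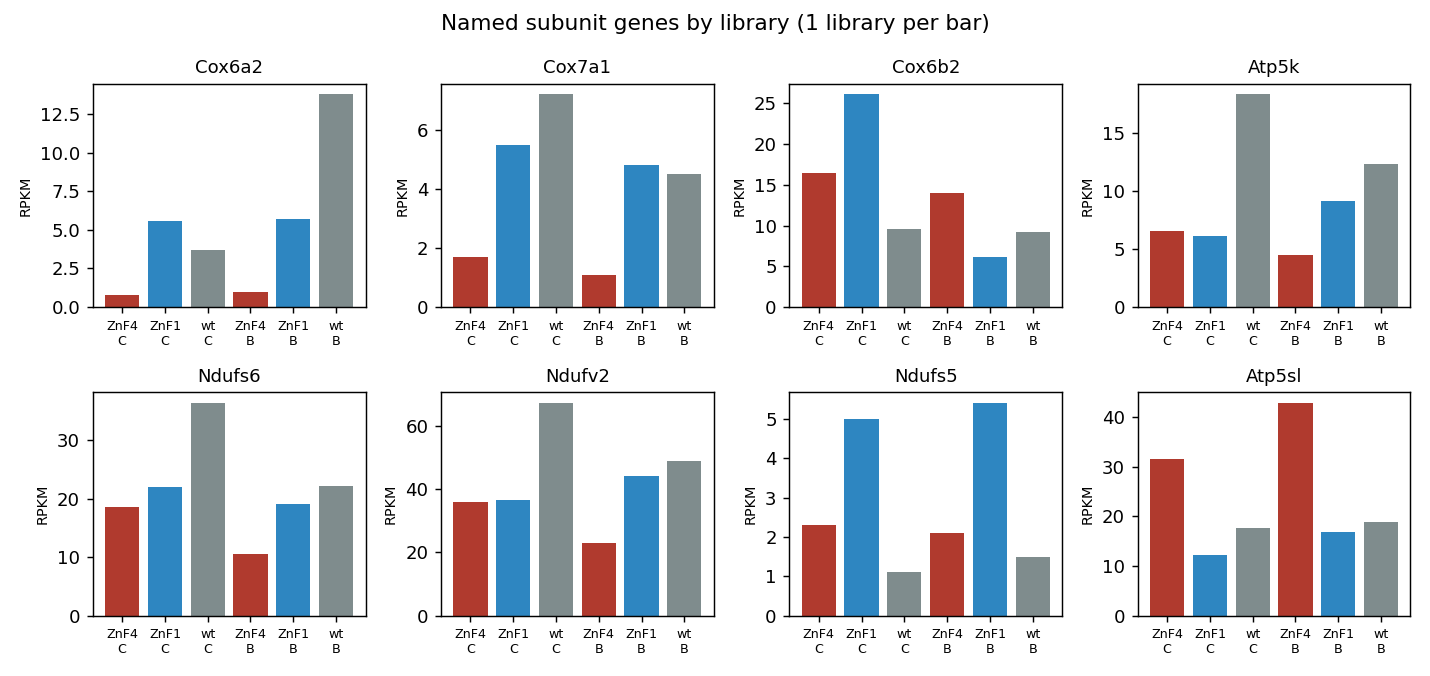
RPKM of 8 named subunit genes in each of the 6 libraries (1 bar per library, linear axes that start at 0 and differ between panels), in the order ZnF4, ZnF1 and wt within fraction C and then fraction B. Both ZnF4 bars are the lowest for Cox7a1 (1.7 and 1.1 RPKM) and Cox6a2 (0.8 and 1.0 RPKM) and the highest for Atp5sl (31.5 and 42.8 RPKM), and both ZnF1 bars are the highest for Ndufs5 (5.0 and 5.4 RPKM).

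Between the fractions, nearly all subunit genes were higher in fraction C than in fraction B in ZnF4 and in wt cells. In ZnF4 68 of 74 members were higher in fraction C (61.3% of all genes), in wt 68 (56.7%) and in ZnF1 18 (36.2%). Of the members 64 were higher in fraction C in both ZnF4 and wt (44.0% of all genes), and 34 by at least 0.32 in both (12.0%). These counts leave out ZnF1 and were chosen with the data in view. With ZnF1 included, no member reached 0.32 in every genotype, and Atp5h came nearest, with 0.27 in ZnF4. At least 1.5-fold higher were 20 members in ZnF4 (11.7% of all genes), 2 in ZnF1 (15.3%) and 10 in wt (4.83%). At least 1.5-fold lower were 0 in ZnF4 (3.44% of all genes), 7 in ZnF1 (15.7%) and 1 in wt (4.48%). The median difference, fraction C minus B, was 0.44 in ZnF4 (all genes 0.11), -0.18 in ZnF1 (all genes -0.16, and members 0.80 with centring on B-lineage genes, which shifts all genes alike) and 0.38 in wt (all genes 0.06). As folds the medians were 1.35-fold in ZnF4 and 1.30-fold in wt cells. Each complex had its median above 0 in ZnF4 and wt cells: 0.41 and 0.35 for complex I, 0.44 and 0.53 for III, 0.57 and 0.34 for IV, and 0.27 and 0.44 for V. All 8 complex III genes were higher in fraction C in both genotypes.

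**Figure D4:**
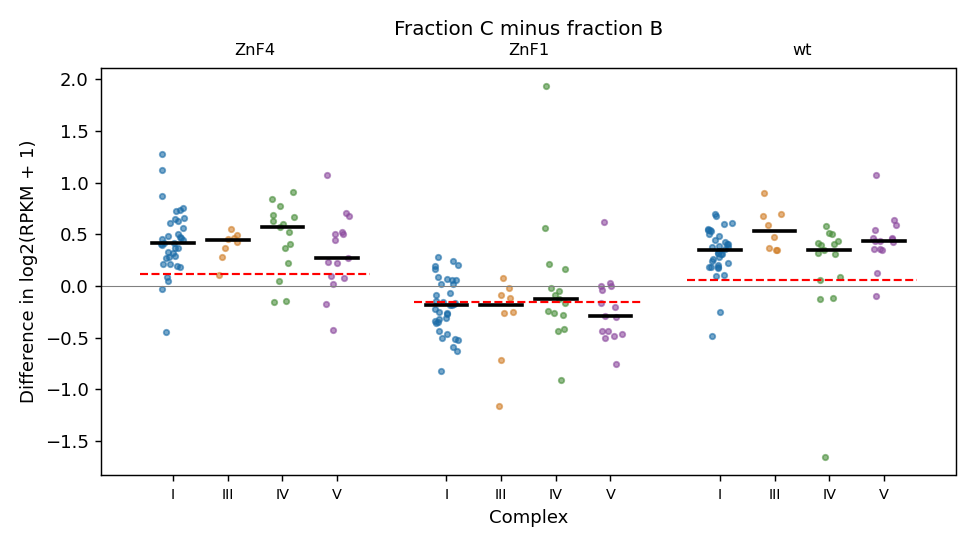
Difference in log2(RPKM + 1), fraction C minus fraction B, of each subunit gene (points) in ZnF4, ZnF1 and wt cells, by complex, with black bars at the complex medians and red dashed lines at the median of all 10943 genes. Medians over all members are 0.44 in ZnF4, -0.18 in ZnF1 and 0.38 in wt cells, and centring on B-lineage genes, which shifts all genes alike, turns that of ZnF1 to 0.80.

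The abundant genes had this pattern as the lists did. Atp5b stood at 370.4 RPKM in fraction C against 258.6 RPKM in fraction B of ZnF4 cells, at 426.5 against 479.3 RPKM in ZnF1 cells and at 574.2 against 424.0 RPKM in wt cells. Cox4i1 stood at 322.1 RPKM in fraction C against 242.6 RPKM in fraction B of ZnF4 cells, at 331.4 against 342.9 RPKM in ZnF1 cells and at 359.3 against 283.1 RPKM in wt cells. Both were higher in fraction C in ZnF4 and wt cells and lower in ZnF1 cells. In 3 members, found after the values were seen, every fraction C library lay above every fraction B library (2.27% of all genes): Ndufa5 and Ndufa3, accessory subunits of complex I, and Cox6b1, a complex IV subunit on the side of cytochrome c. Ndufa5 stood at 41.7, 41.6 and 47.3 RPKM in fraction C of ZnF4, ZnF1 and wt cells, against 24.7, 41.2 and 32.4 RPKM in fraction B. Cox6b1 stood at 156.0, 166.1 and 155.8 RPKM in fraction C, against 96.8, 143.7 and 115.3 RPKM in fraction B of the same genotypes. The 1 member at least 1.5-fold lower in fraction C of wt cells was Cox6a2, by 3.15-fold. Also lower there (40.9% of all genes) were all 4 plasmacytoid, 6 NK, 16 granulocyte and monocyte and 12 erythroid markers. So were 12 of 14 proB and 3 of 4 tested T cell markers. In ZnF1 cells Siglech went from 20.2 RPKM in fraction B to 33.0 RPKM in C, and Cox6a2 from 5.7 to 5.6 RPKM. The part of such cells in the level of Cox6a2 was not tested.

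No member and no other gene passed limma for fraction C minus B (0 of 10943, or 0.0%), and 2 members, Ndufs6 and Atp5h, stood at an unadjusted p under 0.05, both higher in fraction C (1.84% of all genes), with 0 lower (2.83%). With only the ZnF4 and wt libraries, an alternative chosen with the data in view, the lowest adjusted p of the members in limma was 0.0796, shared by Ndufb2, Ndufs6, Ndufa5, Ndufv1 and Uqcr10, and again no gene passed. Ndufb2 stood at 21.5 RPKM in fraction C against 11.3 RPKM in fraction B of ZnF4 cells and at 26.0 against 15.9 RPKM in wt cells, and Uqcr10, a small complex III subunit, at 67.6 against 45.7 RPKM and at 77.3 against 47.5 RPKM. Length moved with this step too: other genes under 1000 bases had medians of 0.21 in ZnF4 and 0.19 in wt cells, and those of 2000 bases or more 0.08 and 0.03, against 0.45 and 0.40 for the short members. The 17 members of 1000 to under 2000 bases had 0.43 in ZnF4 and 0.36 in wt cells, beside 0.17 and 0.11 for other genes of that length. Granulocyte and monocyte markers summed to 1795.8 RPKM in fraction C against 1036.3 RPKM in fraction B of ZnF4 cells, and to 2743.8 against 3898.1 RPKM in wt cells. In ZnF1 cells they summed to 43976.0 RPKM in fraction C against 1706.9 RPKM in fraction B, and their part in the members' step was not tested in any genotype.

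Other mitochondrial genes, from lists drawn up with earlier results of these data known, gave 0 limma calls in each comparison. The 4 genes of complex II, succinate dehydrogenase, summed to 338.2, 299.3 and 404.2 RPKM in ZnF4, ZnF1 and wt cells of fraction C and to 251.7, 348.9 and 318.1 RPKM in fraction B. All 4 were higher in fraction C in both ZnF4 and wt cells (44.0% of all genes) and lower in ZnF1 cells (62.4%), with medians of 0.40, 0.33 and -0.11 for ZnF4, wt and ZnF1. Sdha, the flavoprotein subunit, stood at 111.5, 95.8 and 146.8 RPKM in ZnF4, ZnF1 and wt cells of fraction C and at 84.8, 101.1 and 110.7 RPKM in fraction B. Sdhd, a membrane anchor, was 1.54-fold lower in ZnF4 than in wt cells of fraction C and 1.53-fold lower in fraction B (limma -0.62, SE 0.22, adjusted p = 0.262), while Sdhb and Sdhc differed by at most 1.14-fold. Cytochrome c1, from Cyc1, stood at 96.7, 78.5 and 126.3 RPKM in ZnF4, ZnF1 and wt cells of fraction C and at 78.9, 101.4 and 95.0 RPKM in fraction B, and Cycs, which has many copies in the genome, was at 0.1 to 0.4 RPKM. Of 28 tested assembly factors, 23 were lower in ZnF4 than in wt cells of fraction C (53.0% of all genes) and 21 in fraction B (55.8%). For fraction C minus B 3 assembly factors were lower in ZnF4 (36.1% of all genes), 24 in ZnF1 (62.4%) and 1 in wt cells (40.9%). Across the assembly factors, 5 stood lower (9.74% of all genes) and 1 higher (7.9%) in ZnF4 than in wt at an unadjusted limma p under 0.05.

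Among 13 tested regulators of mitochondrial biogenesis, Myc, which drives growth and ribosome and mitochondrial gene expression, differed most: it stood at 11.3, 22.5 and 91.7 RPKM in ZnF4, ZnF1 and wt cells of fraction C and at 5.5, 25.7 and 48.7 RPKM in fraction B. ZnF4 cells were 7.54-fold and 7.65-fold below wt (limma -2.92, SE 0.34, adjusted p = 0.0896), and ZnF1 cells 3.94-fold and 1.86-fold (limma -1.44, SE 0.34, adjusted p = 0.441). Ppargc1b, a coactivator of respiratory genes, stood at 1.0, 0.6 and 3.7 RPKM in ZnF4, ZnF1 and wt cells of fraction C and at 0.9, 1.6 and 2.4 RPKM in fraction B. Of the factors that bind respiratory gene promoters, Nrf1 differed between ZnF4 and wt cells by 1.19-fold in fraction C and 1.08-fold in fraction B, Gabpa by 1.06-fold and 1.27-fold, Gabpb1 by 1.02-fold and 1.38-fold, Yy1 by 1.27-fold and 1.18-fold, and Esrra by 1.29-fold and 1.89-fold. Tfam, the main factor of mitochondrial DNA transcription, differed by 1.07-fold and 1.05-fold. Higher in ZnF4 were Polg, the mitochondrial DNA polymerase, with 42.7 and 46.3 RPKM in ZnF4 against 27.5 and 26.6 RPKM in wt cells (limma 0.70, adjusted p = 0.158), and Esrra with 13.1 and 20.5 RPKM against 9.9 and 10.4 RPKM. Of 13 tested markers of mitochondrial content, 12 were lower in ZnF4 than in wt in each fraction (53.0% of all genes in fraction C and 55.8% in fraction B), with a limma median of -0.34 (all genes -0.07). Vdac1, a pore of the outer membrane, stood at 25.7 and 20.9 RPKM in ZnF4, 46.0 and 47.6 RPKM in ZnF1 and 60.9 and 46.8 RPKM in wt cells (limma -1.17 for ZnF4 minus wt, adjusted p = 0.117). Hspa9, a chaperone of the matrix, stood at 38.9 and 24.6 RPKM in ZnF4, 37.8 and 55.7 RPKM in ZnF1 and 95.4 and 55.7 RPKM in wt cells. All 13 content markers were higher in fraction C than in B in both ZnF4 and wt cells (44.0% of all genes).

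Because the wt libraries carry Xist RNA and the mutants Y-linked RNA, the 3 X-linked members are given apart. Ndufa1, an accessory subunit of complex I, stood at 50.7, 62.4 and 56.6 RPKM in ZnF4, ZnF1 and wt cells of fraction C and at 41.3, 52.6 and 49.7 RPKM in fraction B. Ndufb11, also of complex I, stood at 34.9, 28.6 and 29.7 RPKM in fraction C and at 30.6, 41.5 and 25.3 RPKM in fraction B in the same order. Cox7b stood at 6.6, 8.7 and 9.4 RPKM in fraction C and at 4.3, 12.1 and 6.3 RPKM in fraction B. ZnF4 showed no common direction against wt: it was lower for Ndufa1 and Cox7b and higher for Ndufb11, by 1.11-fold to 1.38-fold. ZnF1 lay above wt in fraction B for Ndufa1, Ndufb11 and Cox7b, by 0.08, 0.69 and 0.84 on the log2 scale (54.2% of all genes were higher). In fraction C the ZnF1 differences from wt were 0.14, -0.05 and -0.10 in the same order.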

How the data were processed

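RNA sequencing gave 1 library for each of 3 genotypes and 2 Hardy fractions. The values are RPKM that the authors computed per RefSeq transcript, per the file headers, with steps of 0.1. Per the submitters' processing notes, TopHat and bedtools were used, and the build was mm9. What the sources used here do not give is the RPKM denominator, the use of strand and the treatment of reads that fit several places. Depth is unknown, so no counting interval is given.

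The table held 26532 rows, 1 of which had no name and was not used, and the unused columns of other samples numbered 0. Groups came from the titles. The limma tests (limma 3.58.1, R 4.3.3, lmFit and eBayes with trend) used log2(RPKM + 1) in an additive model of genotype and fraction over the 6 libraries, on 10943 genes with Benjamini-Hochberg adjustment, two-sided, and were tested on simulated data. The members and lists were chosen with earlier results of these data known. Named members are, per comparison, up to 5 in each direction, ranked by whichever fold is nearer to no change, with at least 0.32 on the log2 scale in every pair. Also named are leading genes of the complexes (1 result is not reported here), isoform families, X-linked members and members listed at 0. From the other lists up to 2 genes at each end and fixed genes are given. Shared stretches of 50 bases were counted in GENCODE transcripts of mouse GRCm38, and promoters came from RefSeq (GRCm38.p6). All 74 members matched the RefSeq gene table. Pseudocount, filter, scaling, transcript choice, model and left-out libraries were varied.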

Additional observations from a re-analysis of the deposited data

Results flagged for a closer look

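Several medians pointed in opposite directions under the same contrast in different fractions or genotypes. None of these differences was tested, since each group is 1 library. All involve both ZnF1 libraries. That of fraction C held granulocyte, monocyte and erythroid RNA, whose part was not tested. For ZnF1 minus wt, the median log2 difference of all members was -0.19 in fraction C (all genes -0.16) and 0.33 in fraction B (all genes 0.04). It was -0.36 and 0.18 for complex I, -0.11 and 0.49 for complex III, and -0.26 and 0.50 for complex V, fraction C before B. For ZnF4 minus ZnF1, the median of complex I was 0.18 in fraction C and -0.46 in fraction B, and Cox6b2 differed by -0.63 in fraction C and 1.08 in fraction B.

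For fraction C minus B, the median of all members was 0.44 in ZnF4, -0.18 in ZnF1 and 0.38 in wt cells. By complex it was 0.41, -0.18 and 0.35 for complex I, 0.44, -0.18 and 0.53 for complex III, 0.57, -0.13 and 0.34 for complex IV, and 0.27, -0.29 and 0.44 for complex V, in the order ZnF4, ZnF1 and wt. Ndufab1 differed by 0.72 in ZnF4, -0.82 in ZnF1 and 0.40 in wt cells, at levels of at most 3.1 RPKM.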

How the results depend on the processing

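No paired analysis was possible because the labels give no replicate numbers and each genotype and fraction has 1 library. The number of members passing limma was 0 in each of the 4 comparisons. It became 22 for ZnF4 minus wt with only the compared libraries, and for ZnF4 minus ZnF1 it became 1 with a pseudocount of 0.25, with median centring or without the fraction term, and 14 with centring on B-lineage genes. Leaving out a library in turn gave 0 to 22 for ZnF4 minus wt, 0 to 20 for ZnF1 minus wt, 0 to 33 for ZnF4 minus ZnF1 and 0 for fraction C minus B. The median limma difference of the members then ran from -0.33 to -0.0178, from -0.23 to 0.38, from -0.58 to 0.0231 and from 0.07 to 0.40 in the same order, so that of ZnF1 minus wt turned to -0.23 and that of ZnF4 minus ZnF1 to 0.0231 without the ZnF1 fraction B library.

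The ZnF4 minus wt median was -0.18, and became -0.12 with median centring, -0.71 with B-lineage centring and -0.26 over members with under 5% of stretches shared. B-lineage centring, which shifts all genes of a library alike, moved the median to -1.07 for ZnF4 minus ZnF1 and 0.59 for fraction C minus B. It also turned ZnF1 minus wt to 0.57 in fraction C and 0.19 for complex I, ZnF4 minus ZnF1 to -1.17 in fraction C, fraction C minus B to 0.80 in ZnF1, and Ndufa6 and Ndufs8 to -0.0455 and -0.0862 for ZnF4 minus wt. Median centring turned complex V to -0.0312 for ZnF1 minus wt. The causes were not tested. Of the other recomputed values of single genes, complexes and pairs, 375 counted as the same, 46 newly passed limma and 19 moved by more than the spread. A single gene counted as the same if its direction and its passing or missing of limma were unchanged. A median did if it kept its direction and moved by less than the spread of the medians between pairs. Values counted as the same could still differ: leaving out libraries took Cox6a2 from -2.92 to -1.35 for ZnF4 minus wt. With 2 residual degrees of freedom or fewer, a p that misses the threshold shows no equality.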
